A study of Mus musculus with 23 samples.

Results

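LKS cells made from mouse ESCs in Synthecon vessels were set against LKS cells of adult mouse BM on Illumina bead arrays, over all 25697 probes and the 17912 genes that they read. The labels gave 8 Synthecon and 3 BM arrays, 11 of the 23 arrays of the series. The Synthecon cells came from R1 ESCs of the 129X1/SvJ x 129S1 background, kept on inactivated mouse embryonic fibroblasts and then differentiated for 7 days as embryoid bodies in a vessel that rotates slowly and so keeps the cells in suspension at low shear. A sort for c-kit and Sca-1 followed, with no lineage depletion before it, since the study had seen no lineage-positive cells at that day. The BM cells came from mice of the same background aged 10 weeks, were depleted of cells carrying antigens of mature blood lineages and went through the same sort. No group carried a transgene or received an added agent according to the labels. Spinner and Static LKS cells from the same ESCs at day 7, undifferentiated ESCs at day 0 and FL LKS cells of embryos at day 15 had 3 arrays each. These groups are used below to place the values. They also entered the main fit, and so bear on its SEs and adjusted p-values. The comparison asks how far the cells of the rotating vessel carry the transcripts of the marrow cells that share their sort.

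LKS stands for lineage-negative, c-kit-positive and Sca-1-positive. In adult marrow this fraction is small and holds the hematopoietic stem cells together with multipotent progenitors, which give rise to granulocytes, monocytes, red cells, platelets and lymphocytes. The c-kit receptor and Sca-1 are not specific to blood: ESCs and germ cells also carry c-kit, and Sca-1 is found on several embryonic and epithelial cells. In bulk RNA, fewer cells of a type and less RNA per cell cannot be told apart.

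Values are log2 intensities that the authors had normalized by quantiles, so the arrays share a median of 6.40 and a top of 15.09, with a lower end of 4.90 to 4.93, and most values below about the dimmest detected probe of an array (6.67 to 7.02) are background. For a gene, the values of the Synthecon cells are given as the lowest, the median and the highest of the 8 arrays, and those of the BM cells as replicates 1, 2 and 3. Synthecon replicates 3 to 8 shared slide 3, where the odd-numbered arrays resembled each other, and the even-numbered ones each other, more than the other set: within a set they differed by a median of 0.061 to 0.066 on the log2 scale over 1488 bright probes, and between sets by 0.154 to 0.168. Replicates 1 and 2, on slide 2, differed by 0.165 from each other, by 0.1823 to 0.2004 from the slide 3 arrays of like number and by 0.2396 to 0.2586 from the others there, so each was placed with its nearer set. BM arrays differed by 0.167 to 0.393. Each set (1, 3, 5 and 7, and 2, 4, 6 and 8) was averaged and counted as 1 sample (n = 2 against n = 3). Differences are Synthecon minus BM on the log2 scale with their SE, and the p-values are those of limma adjusted over all probes. A gene not above background (detection p under 0.01) on any array of one group has only a bound, written as at least N-fold, with that group raised to the dimmest detected probe of each array. Where some arrays of the lower group were above background, a fold uses background values for the rest, and the number read is given. The labels call the arrays of a group biological replicates without saying whether they came from separate cultures or animals. A p-value here therefore speaks only of how far arrays scatter, which may be technical. That scatter was estimated for each probe over all 6 groups of the series, so an SE can reflect the spread of groups other than Synthecon and BM.

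Of the 25697 probes, 7558 (29.4%) were called at an adjusted p under 0.05. Of these, 3917 (15.2%) were higher and 3641 (14.2%) were lower in Synthecon cells. At 5-fold or more, 644 probes (2.51%) were higher and 596 (2.32%) lower. On background-subtracted intensities centred on the median of each array, the split turned to 3269 higher and 5165 lower, with the median of all probes at 0.208. With the brightest probe of each gene, 5587 of 17912 genes (31.2%) were called, 3067 (17.1%) higher and 2520 (14.1%) lower, and 561 (3.13%) and 487 (2.72%) of them passed 5-fold. Counts of gene lists below are to be read beside these shares of 17.1% and 14.1%. The median difference over all genes was 0.000741, with quartiles at -0.278 and 0.325. The Synthecon and BM arrays did not overlap for 6663 genes (37.2%). Only slide 2 held both groups (Synthecon replicates 1 and 2, BM replicates 2 and 3), and within it 3897 probes were higher and 3050 lower. BM replicate 1 was the only BM array on slide 1, and 6 of the 8 Synthecon arrays were on slide 3, which held no BM array.

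**Figure D1:**
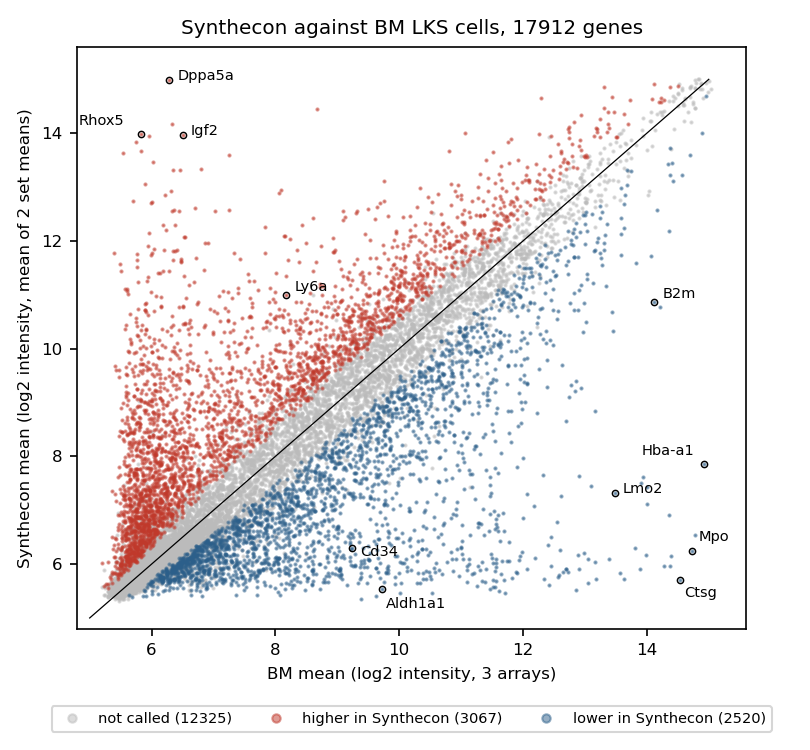
Mean log2 intensity of each of 17912 genes in Synthecon cells (vertical axis, mean of 2 set means) against BM cells (horizontal axis, mean of 3 arrays), with the line of equal values. Red points are the 3067 genes called higher and blue points the 2520 called lower in Synthecon cells; the genes farthest from the line lie near background in the other group.

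The surface antigens of the sort and of the lineage depletion came first. Ly6a, which encodes Sca-1, had values of 10.39, 10.98 and 11.52 in Synthecon cells and 7.84, 8.30 and 8.36 in BM cells. All Synthecon arrays lay above all BM arrays, a difference of 2.82 ± 0.66, adjusted p = 0.0038, 7.07-fold higher. The replicates 1, 3, 5 and 7 averaged 11.41 and the replicates 2, 4, 6 and 8 averaged 10.57, and with the second set alone the call was lost (2.40, adjusted p = 0.063). Kit was not analysed here. Ptprc, the gene of CD45, of which the depletion used the B220 form alone, had 5.78, 5.88 and 6.04 in Synthecon cells, below background on every array, and 7.11, 8.51 and 7.78 in BM cells (-1.91 ± 0.32, adjusted p = 0.00027, at least 2.12-fold lower). Ly6c1, which encodes a Ly6 protein that some antibodies to Gr-1 also bind, had 5.39, 6.0 and 6.29 in Synthecon cells and 13.53, 14.06 and 14.09 in BM cells (-7.98 ± 0.44, adjusted p = 4.5e-09, at least 144-fold lower). Itgam, the gene of CD11b, had 5.63, 5.71 and 6.12 in Synthecon cells and 5.72, 7.29 and 6.53 in BM cells, and the difference missed the threshold (-0.75 ± 0.28, adjusted p = 0.054), although without BM replicate 1 it passed (-1.15, adjusted p = 0.00028). The Ptprc probe does not tell B220 from the CD45 forms that LKS cells carry. Ptprc and Ly6c1 were read on all 3 BM arrays and Itgam on 1, and none of the 3 was read on any Synthecon array.

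The defining markers of blood cells were checked next, with Cd53, Rac2, Laptm5, Sox2 and Zfp42 chosen after their values were seen. Of the pan-leukocyte markers Ptprc, Cd53 and Rac2, none was above background on any Synthecon array and each was on all BM arrays, whereas Coro1a and Laptm5 were read on all arrays of both groups and were called lower. Cd53 had 5.55, 5.85 and 6.04 in Synthecon cells and 11.21, 12.25 and 11.46 in BM cells (-5.83 ± 0.71, adjusted p = 1.4e-05). Laptm5, which encodes a lysosomal membrane protein of blood cells, had 11.66, 12.16 and 12.69 in Synthecon cells and 13.95, 14.64 and 14.49 in BM cells (-2.18 ± 0.61, adjusted p = 0.013, 4.54-fold lower), and without Synthecon replicates 2, 4, 6 and 8 the call was lost (-1.74, adjusted p = 0.15). Cd34 was below background on all 8 Synthecon arrays. The ESC markers Pou5f1, Nanog, Zfp42 and Sox2 were read on all 8 Synthecon arrays and on no BM array. Several defining blood markers were thus not read in the Synthecon cells, with Laptm5 bright in both groups, and ESC markers were read, so these cells are called LKS cells here by their sort.

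**Figure D2:**
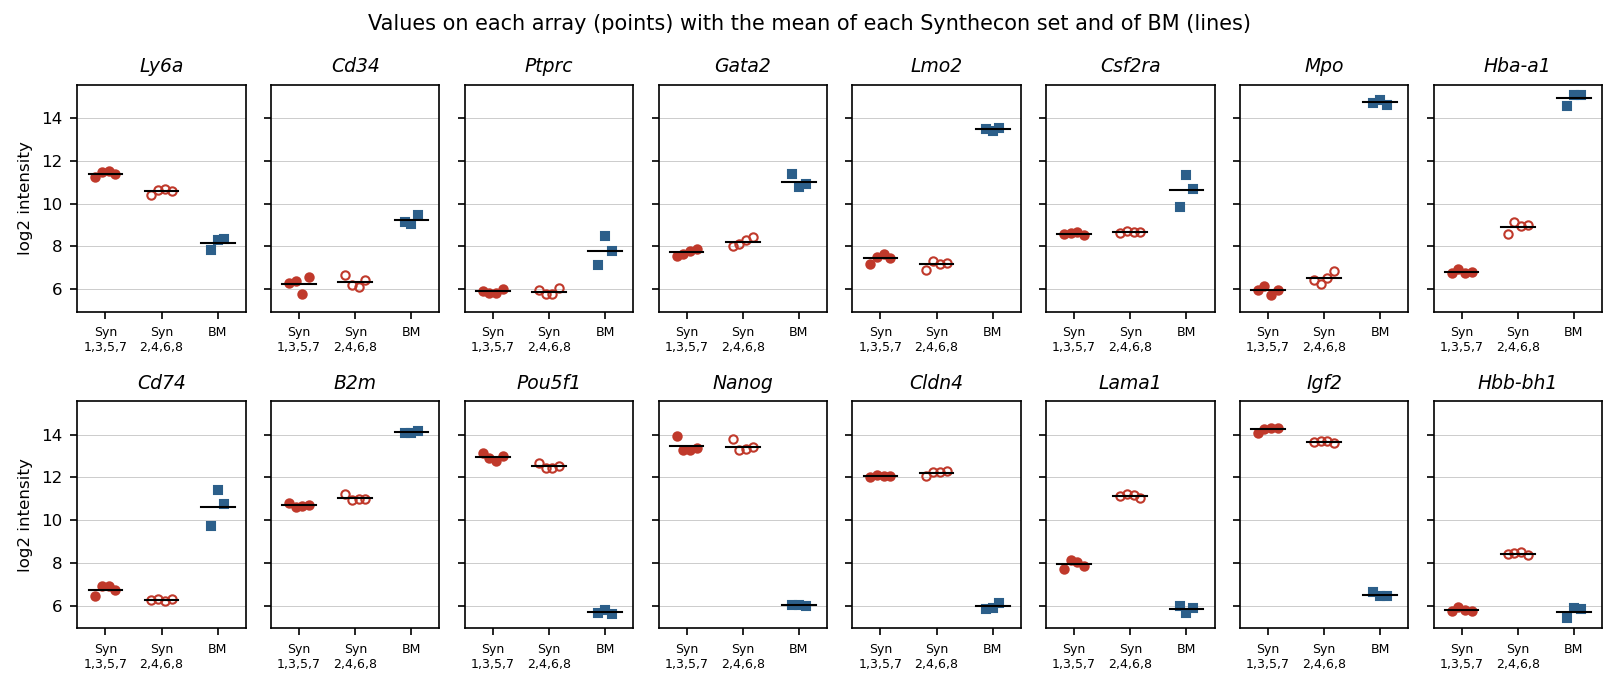
Log2 intensity (vertical axis) of 16 genes on each array, with the 2 sets of Synthecon arrays (filled circles for replicates 1, 3, 5 and 7, open circles for replicates 2, 4, 6 and 8) to the left of the BM arrays (squares); lines are means. Synthecon and BM points overlap for Hbb-bh1 alone, and the 2 Synthecon sets lie furthest apart for Lama1, Hba-a1 and Hbb-bh1.

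Neutrophil granule genes held 8 of the 15 largest falls. Of 24 measured genes of the list, 22 fell and none was called higher, against 14.1% called lower over all genes, and the median difference was -6.79. Granules of neutrophils are filled in order: azurophil granules with myeloperoxidase and serine proteases form in promyelocytes, and specific granules with lactoferrin and antimicrobial peptides form in later stages. The promoters of 4 azurophil granule genes are shown because ETS family factors such as PU.1 bind at GGAA cores and are known to act on these genes. They are RefSeq sequence of build GRCm38.p6, 250 bases before to 50 after the gene start, 5′ to 3′ on the strand of the gene, with the letters GGAAGT in capitals.
Mpo (chr11:87793534-87793833, plus strand): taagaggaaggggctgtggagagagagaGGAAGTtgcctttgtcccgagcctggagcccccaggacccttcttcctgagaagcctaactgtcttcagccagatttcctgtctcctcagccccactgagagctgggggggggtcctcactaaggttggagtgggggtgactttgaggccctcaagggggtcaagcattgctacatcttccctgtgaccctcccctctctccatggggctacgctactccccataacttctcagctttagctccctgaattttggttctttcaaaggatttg
Elane (chr10:79886062-79886361, plus strand): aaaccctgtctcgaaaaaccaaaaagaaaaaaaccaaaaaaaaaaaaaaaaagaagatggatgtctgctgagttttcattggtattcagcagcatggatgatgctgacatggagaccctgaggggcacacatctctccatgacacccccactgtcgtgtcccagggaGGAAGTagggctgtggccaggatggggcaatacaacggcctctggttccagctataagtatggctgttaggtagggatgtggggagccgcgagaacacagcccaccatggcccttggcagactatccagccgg
Prtn3 (chr10:79879417-79879716, plus strand): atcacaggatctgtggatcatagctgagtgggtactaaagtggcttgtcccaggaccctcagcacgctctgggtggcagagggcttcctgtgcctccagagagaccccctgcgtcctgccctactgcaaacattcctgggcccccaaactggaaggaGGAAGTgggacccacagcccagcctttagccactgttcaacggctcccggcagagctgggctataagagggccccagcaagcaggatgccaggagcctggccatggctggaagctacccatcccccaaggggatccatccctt
Ctsg (chr14:56102525-56102824, minus strand): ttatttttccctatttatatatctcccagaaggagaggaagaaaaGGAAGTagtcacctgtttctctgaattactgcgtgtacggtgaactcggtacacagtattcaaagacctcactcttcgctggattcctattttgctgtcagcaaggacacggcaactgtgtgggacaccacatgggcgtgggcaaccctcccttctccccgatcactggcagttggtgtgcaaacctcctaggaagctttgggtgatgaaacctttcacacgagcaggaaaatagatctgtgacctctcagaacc

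The match began 222 bases before the start of Mpo, 83 before that of Elane, 93 before that of Prtn3 and 205 before that of Ctsg. GGAAGT, searched on both strands, stood in 14 of the 21 promoters of the 22 called granule genes and in 24.1% of 27025 promoters of the same length. The specific granule genes Ltf, Lcn2, Camp and Ngp were not among the 14. The string was not particular to granule genes: it stood in 13 of 21 promoters of called pan-leukocyte genes and in 2 of 12 of called erythroid genes. A total of 17 letter strings had been searched, among them TTGNNNAA for C/EBP factors (13 of the 21, 36.9% of all promoters), TGTGGT for RUNX factors (6 and 16.9%), AGATAA for GATA factors (5 and 11.4%) and CACCC for KLF factors (13 and 56.7%). GAGGAA, a PU.1 spelling whose last letters can overlap GGAAGT, also stood in 14 of the 21 and in 28.3% of all. A match is a description of letters and not of a bound site.

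Mpo, myeloperoxidase, had 5.74, 6.20 and 6.86 in Synthecon cells and 14.71, 14.87 and 14.62 in BM cells (-8.50 ± 1.05, adjusted p = 1.5e-05), and 1 of the 8 Synthecon arrays was above background. Elane, neutrophil elastase, had 5.83, 6.09 and 6.50 in Synthecon cells and 13.94, 14.62 and 14.60 in BM cells (-8.24 ± 0.25, adjusted p = 8.4e-12, at least 203-fold lower). Ctsg, cathepsin G, had the largest fitted fall, although it was below background on every Synthecon array and so has only a bound, with 5.53, 5.62 and 6.03 in Synthecon cells and 14.49, 14.37 and 14.72 in BM cells (-8.83 ± 0.22, adjusted p = 1.3e-12, at least 224-fold lower). These proteases were near the top of the scale on all BM arrays and at or near background on the Synthecon arrays. Prtn3, proteinase 3, was the azurophil gene read on most Synthecon arrays (7 of 8), with 6.49, 6.86 and 7.40, against 14.11, 14.61 and 14.34 in BM cells (-7.45 ± 0.35, adjusted p = 8.6e-10, 175-fold lower). S100a8, a subunit of calprotectin, had 5.82, 5.93 and 6.20 in Synthecon cells and 13.83, 14.51 and 14.47 in BM cells (-8.31 ± 0.37, adjusted p = 3.9e-10, at least 188-fold lower). The transcripts of the specific granules were uneven among the BM arrays. Over Ltf, Lcn2, Camp and Ngp, chosen after their values were seen, the mean was 5.83, 5.91 and 6.0 in Synthecon cells (lowest, median and highest array) and 9.60, 14.63 and 14.04 in BM replicates 1, 2 and 3. Over Mpo, Elane, Prtn3 and Ctsg it was 6.03, 6.26 and 6.64 in Synthecon cells and 14.31, 14.62 and 14.57 in BM cells. BM replicate 1 thus lay 3.41 to 5.34 below the mean of the other BM arrays in the 4 specific granule genes and 0.04 to 0.67 below it in the 4 azurophil genes. Lyz2, lysozyme, was also lowest on BM replicate 1, with 5.37, 5.67 and 5.81 in Synthecon cells and 10.49, 14.30 and 14.35 in BM cells (-7.40 ± 0.99, adjusted p = 3.6e-05). Ltf, lactoferrin, had 5.62, 5.98 and 6.10 in Synthecon cells and 9.25, 14.65 and 14.16 in BM cells (-6.77 ± 1.23, adjusted p = 0.00055).

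**Figure D3:**
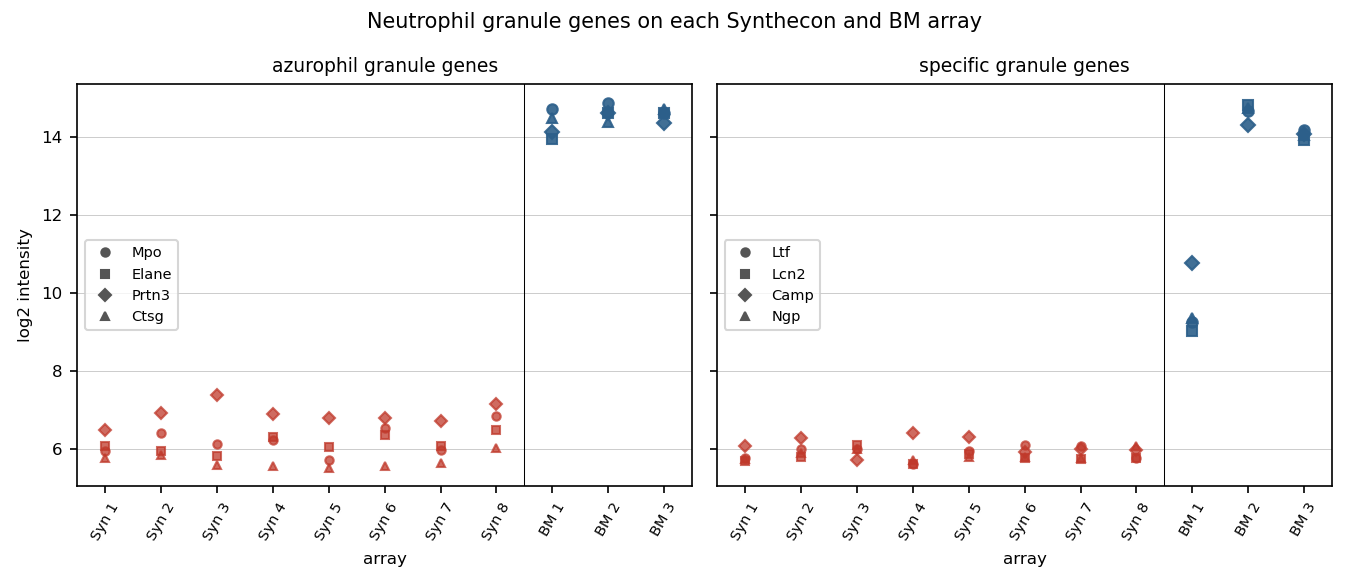
Log2 intensity (vertical axis) of 4 azurophil (left) and 4 specific granule genes (right) on each of the 8 Synthecon arrays and the 3 BM arrays. All Synthecon values lie between 5.53 and 7.40, the BM values of the azurophil genes between 13.94 and 14.87, and those of the specific genes at 9.02 to 10.77 on BM replicate 1 against 13.91 to 14.82 on the others.

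The other mature myeloid lists fell as well. Of 15 mast cell, basophil and eosinophil genes, 10 fell and none was called higher (median -4.86). Prg2, the major basic protein of eosinophil granules, had 5.63, 5.95 and 6.29 in Synthecon cells and 13.99, 14.44 and 14.69 in BM cells (-8.41 ± 0.35, adjusted p = 2.2e-10, at least 202-fold lower). Mcpt8, a protease of mouse basophils, had 5.53, 5.66 and 5.95 in Synthecon cells and 11.91, 10.67 and 10.72 in BM cells (-5.43 ± 0.63, adjusted p = 8.5e-06, at least 20.9-fold lower). The eosinophil ribonucleases were less even among the BM arrays, and Ear6 had 5.50, 5.90 and 6.06 in Synthecon cells and 12.02, 12.34 and 13.56 in BM cells (-6.79 ± 0.34, adjusted p = 1.8e-09). Of 20 monocyte and macrophage genes, 14 fell and none was called higher (median -2.71). The chemokine Ccl9 had 5.59, 5.97 and 6.17 in Synthecon cells and 12.48, 12.77 and 12.80 in BM cells (-6.77 ± 1.01, adjusted p = 9.3e-05, at least 62.5-fold lower). Tyrobp, the adaptor DAP12 of activating receptors, had 5.44, 5.91 and 6.16 in Synthecon cells and 10.66, 12.08 and 11.87 in BM cells (-5.66 ± 0.84, adjusted p = 8.7e-05, at least 28.2-fold lower). Among myeloid transcription factors, 5 of 11 fell. Spi1, which encodes PU.1, had 5.46, 5.63 and 6.03 in Synthecon cells and 7.54, 8.92 and 8.29 in BM cells (-2.57 ± 0.38, adjusted p = 9.3e-05, at least 2.89-fold lower). Irf8, a regulator of monocyte and dendritic cell fate, had 6.16, 6.43 and 6.54 in Synthecon cells and 11.09, 10.33 and 10.68 in BM cells (-4.33 ± 0.69, adjusted p = 0.00016, at least 15.8-fold lower). Klf4, which serves both monocytes and ESCs, had 10.41, 10.59 and 11.38 in Synthecon cells and 9.33, 11.48 and 10.71 in BM cells and was not called (0.23 ± 0.61, adjusted p = 0.84).

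Erythroid genes fell nearly as far. Of 20 definitive erythroid genes, 18 were lower in Synthecon cells and none was called higher (median -5.32). Hba-a1, adult alpha globin, had 6.74, 7.76 and 9.15 in Synthecon cells and 14.58, 15.09 and 15.09 in BM cells (-7.06 ± 1.02, adjusted p = 6.7e-05, 133-fold lower). Its 2 Synthecon sets averaged 6.81 (replicates 1, 3, 5 and 7) and 8.92 (replicates 2, 4, 6 and 8), and it was read on all 8 arrays. BM replicates 2 and 3 were at 15.09, the top of the scale, where no larger value can be shown. Eraf is the file's symbol for the alpha hemoglobin stabilizing protein, which the list holds as Ahsp, so it is not among the 20 counted. Eraf had 5.92, 6.59 and 7.14 in Synthecon cells and 14.79, 14.88 and 14.64 in BM cells (-8.23 ± 1.01, adjusted p = 1.5e-05, 299-fold lower, read on 4 Synthecon arrays). Slc4a1, the anion exchanger of the red cell membrane, had 6.50, 7.45 and 8.32 in Synthecon cells and 12.60, 14.60 and 14.80 in BM cells (-6.56 ± 1.04, adjusted p = 0.00016, 94.3-fold lower, read on 6 Synthecon arrays). Gata1, the master regulator of the lineage, chosen after its values were seen, had 5.62, 5.86 and 6.27 in Synthecon cells and 8.56, 7.84 and 8.55 in BM cells (-2.41 ± 0.53, adjusted p = 0.0023, at least 3.03-fold lower).

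The embryonic globins, which the first red cells of the yolk sac make, were above background only in 1 of the Synthecon sets. Hbb-bh1 averaged 5.81 on replicates 1, 3, 5 and 7 and 8.43 on replicates 2, 4, 6 and 8, against 5.43, 5.91 and 5.85 on the BM arrays. Hba-x averaged 5.69 and 7.14 on these sets, against 6.31, 5.87 and 5.54 on the BM arrays, and Hbb-y averaged 5.66 and 7.0, against 5.77, 5.72 and 5.89. Each was read on 4 of 8 Synthecon arrays and on no BM array, and none was called (adjusted p = 0.37, 0.78 and 0.84). The near repeats within a set and the gap between sets leave only 2 independent values for these genes. Static LKS cells had 13.73 for Hbb-bh1, 12.82 for Hba-x and 11.86 for Hbb-y as means of 3 arrays.

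Megakaryocyte and platelet genes fell in 11 of 15 cases (median -1.73). Nfe2, a transcription factor of platelet formation, had 5.92, 6.14 and 6.37 in Synthecon cells and 12.51, 13.09 and 13.05 in BM cells (-6.73 ± 0.91, adjusted p = 3.6e-05, at least 71.9-fold lower). Pf4, platelet factor 4, had 5.55, 5.80 and 6.24 in Synthecon cells and 12.61, 11.19 and 11.94 in BM cells (-6.07 ± 1.19, adjusted p = 0.001, at least 36.7-fold lower). Gp5, a subunit of the receptor for von Willebrand factor, had 5.77, 6.18 and 6.58 in Synthecon cells and 9.63, 8.50 and 8.88 in BM cells (-2.82 ± 0.56, adjusted p = 0.0012, at least 4.87-fold lower). With the second Synthecon set alone, 7 genes of the list were called lower in place of 11.

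Of 19 measured lymphoid progenitor genes, 7 fell and 3 were higher in Synthecon cells, against 14.1% and 17.1% over all genes. The share called higher was thus near that over all genes. Dntt, the terminal transferase of B and T cell progenitors, had 5.50, 5.79 and 6.29 in Synthecon cells and 9.86, 7.76 and 8.34 in BM cells (-2.83 ± 0.37, adjusted p = 3.1e-05, at least 3.83-fold lower), and BM replicate 1 was the highest. The 3 genes called higher were Tcf7, Lck and Cd2. Lck, a kinase best known from T cells, had 10.07, 10.24 and 10.34 in Synthecon cells and 8.98, 8.48 and 9.17 in BM cells (1.35 ± 0.35, adjusted p = 0.0075, 2.54-fold higher), and undifferentiated ESCs averaged 9.49. Tcf7, a transcription factor of the Wnt pathway as well as of T cells, had 7.41, 7.69 and 8.33 in Synthecon cells and 6.42, 6.05 and 6.53 in BM cells (1.47 ± 0.42, adjusted p = 0.014, at least 1.8-fold higher). The call of Lck was lost without replicates 2, 4, 6 and 8 (adjusted p = 0.061) and that of Tcf7 without either Synthecon set (adjusted p = 0.073 without the odd-numbered and 0.088 without the even-numbered replicates).

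Transcription factors of blood stem cells were lower in 18 of 29 measured cases and called higher in none (median -1.26), although with either Synthecon set left out 1 was called higher. Lmo2, Lyl1 and Tal1 encode members of 1 complex that sets up the blood program together with GATA factors. Lmo2 had 6.91, 7.28 and 7.63 in Synthecon cells and 13.48, 13.41 and 13.53 in BM cells (-6.17 ± 0.91, adjusted p = 8.1e-05, 71.8-fold lower), and it was read on all 8 Synthecon arrays. Tal1 had 5.47, 5.71 and 6.12 in Synthecon cells and 10.41, 10.19 and 10.73 in BM cells (-4.72 ± 0.78, adjusted p = 0.00023, at least 13.2-fold lower). Lyl1 had 5.77, 5.88 and 6.02 in Synthecon cells and 10.36, 10.91 and 10.68 in BM cells (-4.76 ± 0.53, adjusted p = 5.9e-06, at least 15.3-fold lower). Gfi1, a repressor needed by stem cells and neutrophils, had 6.05, 6.25 and 6.53 in Synthecon cells and 10.62, 11.27 and 11.08 in BM cells (-4.69 ± 0.20, adjusted p = 3.9e-10, at least 19.3-fold lower). Runx1, Gata2 and Meis1 were looked at after their values had been seen. Runx1, which starts definitive blood formation, had 5.64, 5.98 and 6.10 in Synthecon cells and 7.97, 7.89 and 7.85 in BM cells (-1.98 ± 0.39, adjusted p = 0.0011, at least 2.28-fold lower). Gata2 had 7.55, 7.94 and 8.45 in Synthecon cells and 11.37, 10.79 and 10.94 in BM cells (-3.06 ± 0.42, adjusted p = 4.5e-05, 8.36-fold lower), and Meis1 had 7.92, 8.26 and 8.54 in Synthecon cells and 10.44, 10.66 and 10.77 in BM cells (-2.36 ± 0.44, adjusted p = 0.00065, 5.12-fold lower). Both were read on all 8 Synthecon arrays, as 7 of the 29 genes were. Sox17, which endoderm also makes and which was chosen after its values were seen, averaged 6.28 and 8.55 in the 2 Synthecon sets, against 6.03, 5.88 and 5.89 on the BM arrays, and was not called (1.48 ± 0.57, adjusted p = 0.064), but it was with replicates 2, 4, 6 and 8 alone (2.62, adjusted p = 0.0045).

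Surface markers of stem and progenitor cells fell in 11 of 21 cases and rose in 1. Cd34 had 5.78, 6.34 and 6.68 in Synthecon cells and 9.15, 9.07 and 9.48 in BM cells (-2.93 ± 0.37, adjusted p = 1.9e-05, at least 5.71-fold lower). Cd27 and Cd93, both carried by progenitors, differed by -5.71 ± 0.29, adjusted p = 1.8e-09 and -5.40 ± 0.55, adjusted p = 2.3e-06. Slamf1, the CD150 antigen of long-term stem cells, had 5.50, 5.76 and 5.86 in Synthecon cells and 7.09, 7.22 and 7.26 in BM cells (-1.46 ± 0.31, adjusted p = 0.0019, at least 1.39-fold lower). Itga2b, the CD41 integrin of platelets and of the first embryonic blood cells, had 6.29, 6.48 and 6.82 in Synthecon cells and 8.39, 8.30 and 8.17 in BM cells (-1.77 ± 0.54, adjusted p = 0.02, 3.41-fold lower, read on 1 Synthecon array). Procr, the protein C receptor EPCR, and Cd48 were called lower with smaller differences (-0.54 ± 0.14, adjusted p = 0.0084, and -0.42 ± 0.15, adjusted p = 0.042), and Cd48 was below background in both groups. Flt3 and Thy1 were not called (-0.23 ± 0.12, adjusted p = 0.19, and 0.02 ± 0.44, adjusted p = 0.98), and Flt3 was below background on all 11 arrays. Itga6, the laminin receptor CD49f, was the only gene of the list that rose, with 8.09, 8.72 and 9.25 in Synthecon cells and 6.75, 6.32 and 6.69 in BM cells (2.04 ± 0.28, adjusted p = 4.3e-05, at least 3.21-fold higher). With 1 Synthecon set alone, 7 genes were called lower in place of 11, whichever set it was: Itga2b and Procr lost their calls without either set (adjusted p of 0.13 and 0.073 for Itga2b, 0.053 and 0.065 for Procr), and Cd48 also without BM replicate 1 or 3 (adjusted p of 0.096 to 0.17 over these 4 fits).

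The study went on to culture LKS cells with GM-CSF, IL-3 and IL-4, and the receptors of these cytokines were compared. Csf2ra, the alpha chain for GM-CSF, had 8.55, 8.65 and 8.71 in Synthecon cells and 9.85, 11.32 and 10.69 in BM cells (-1.98 ± 0.39, adjusted p = 0.0011, 3.94-fold lower), and all 8 Synthecon arrays read it. Il3ra had 7.66, 7.80 and 8.15 in Synthecon cells and 8.16, 8.50 and 8.59 in BM cells and was not called (-0.53 ± 0.27, adjusted p = 0.16). Csf2rb, the beta chain that GM-CSF and IL-3 share, and Il4ra were below background on all 11 arrays and were not called (-0.24 ± 0.16, adjusted p = 0.29, and -0.29 ± 0.12, adjusted p = 0.095), and Il4ra passed the threshold without Synthecon replicates 1, 3, 5 and 7 (adjusted p = 0.037). Il2rg, the common gamma chain used by IL-4, had 5.69, 6.15 and 6.49 in Synthecon cells and 8.12, 7.99 and 7.87 in BM cells (-1.88 ± 0.20, adjusted p = 4e-06, at least 2.42-fold lower). Over the whole list of 29 cytokine receptor genes, 17 fell and 2 rose (median -1.88), and 1 was called higher without Synthecon replicates 2, 4, 6 and 8. Csf3r, the G-CSF receptor, had 6.02, 6.16 and 6.50 in Synthecon cells and 9.91, 11.93 and 10.68 in BM cells (-4.62 ± 0.53, adjusted p = 8.2e-06, at least 17.4-fold lower). The receptor for interferon gamma split by its chains. Ifngr1, which binds the ligand, had 6.46, 6.64 and 6.85 in Synthecon cells and 10.30, 10.29 and 10.14 in BM cells (-3.62 ± 0.32, adjusted p = 6.9e-07, 12.3-fold lower, read on 2 Synthecon arrays), whereas the second chain Ifngr2 had 11.42, 11.68 and 12.87 in Synthecon cells and 9.91, 10.03 and 9.70 in BM cells (2.0 ± 0.36, adjusted p = 0.0005, 3.99-fold higher).

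Pan-leukocyte genes fell in 28 of 31 cases with none called higher (median -3.87). Coro1a, an actin regulator of leukocytes, had 7.37, 7.52 and 7.60 in Synthecon cells and 13.51, 14.34 and 13.88 in BM cells (-6.41 ± 0.82, adjusted p = 2.1e-05, 84.8-fold lower). Ncf4, a subunit of the phagocyte oxidase, had 5.44, 5.67 and 5.77 in Synthecon cells and 11.23, 13.38 and 12.66 in BM cells (-6.81 ± 0.92, adjusted p = 3.9e-05, at least 52.2-fold lower). Cd52 had 5.94, 6.24 and 6.43 in Synthecon cells and 11.87, 13.90 and 13.18 in BM cells (-6.78 ± 1.08, adjusted p = 0.00017, at least 76.9-fold lower). In these genes, too, BM replicate 1 was the lowest BM array.

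Antigen presentation by MHC class II was read in BM and hardly in Synthecon cells. The 2 promoters below are shown because class II genes share a conserved set of boxes before their start, among them the Y box, an inverted CCAAT box spelled TGATTGG here and set in capitals (RefSeq, GRCm38.p6, strand of the gene).
H2-Aa (chr17:34287774-34288073, minus strand): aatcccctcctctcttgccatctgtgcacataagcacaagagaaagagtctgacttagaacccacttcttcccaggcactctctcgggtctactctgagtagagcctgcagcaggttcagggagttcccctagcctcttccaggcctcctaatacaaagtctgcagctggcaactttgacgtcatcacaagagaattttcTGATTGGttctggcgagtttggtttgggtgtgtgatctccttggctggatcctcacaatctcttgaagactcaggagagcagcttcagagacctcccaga
H2-Eb1 (chr17:34305617-34305916, plus strand): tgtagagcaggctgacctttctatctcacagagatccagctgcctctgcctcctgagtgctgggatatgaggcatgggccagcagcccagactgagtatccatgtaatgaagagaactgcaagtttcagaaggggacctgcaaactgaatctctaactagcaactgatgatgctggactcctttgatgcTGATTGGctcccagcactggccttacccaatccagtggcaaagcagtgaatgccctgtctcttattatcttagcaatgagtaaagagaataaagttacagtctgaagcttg

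TGATTGG began 50 bases before the start of H2-Aa and 61 before that of H2-Eb1. It stood in 6 of the 7 promoters of the 9 called class II genes and in 8.2% of all promoters of that length, and each match holds the reverse complement of CCAAT, which was also searched and stood in 37.9% of all. Of 10 class II genes, 9 fell and none rose (median -2.81). H2-Aa, a class II alpha chain, had 5.57, 5.82 and 6.25 in Synthecon cells and 10.04, 10.75 and 10.11 in BM cells (-4.46 ± 0.78, adjusted p = 0.00036, at least 12-fold lower). Cd74, the invariant chain, had 6.23, 6.39 and 6.91 in Synthecon cells and 9.73, 11.39 and 10.74 in BM cells (-4.11 ± 0.82, adjusted p = 0.0012, 17.3-fold lower), and 3 Synthecon arrays were above background. H2-DMa, which helps to load peptides, was read on all 8 Synthecon arrays at 6.70, 7.09 and 7.33, against 10.75, 11.02 and 11 in BM cells (-3.89 ± 0.51, adjusted p = 2.5e-05, 14.9-fold lower). The call of H2-Eb1, a class II beta chain chosen after its values were seen, was lost without BM replicate 2 or 3 or either Synthecon set (-2.82 to -2.27, adjusted p of 0.051 to 0.12). Class I and its loading genes fell in 15 of 21 cases with none called higher, although without BM replicate 3 there was 1 called higher (median -1.70). B2m, the light chain of all class I molecules, had 10.62, 10.88 and 11.22 in Synthecon cells and 14.10, 14.10 and 14.15 in BM cells (-3.25 ± 0.52, adjusted p = 0.00017, 9.53-fold lower). Tap2, a subunit of the peptide transporter, had 6.41, 6.77 and 7.02 in Synthecon cells and 10.51, 11.07 and 10.56 in BM cells (-3.98 ± 0.28, adjusted p = 7.1e-08, 15.8-fold lower, read on 5 Synthecon arrays). Psmb9, a subunit of the immunoproteasome, differed by -3.47 ± 0.37, adjusted p = 3.6e-06 and was read on all arrays of both groups.

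Innate sensing and interferon genes fell less evenly. Of 17 Toll-like receptor and inflammasome genes, 14 fell and none rose (median -1.51), with 9 and 8 called lower when replicates 1, 3, 5 and 7 or replicates 2, 4, 6 and 8 were left out. Casp1, the protease of the inflammasome, had 5.31, 5.61 and 5.87 in Synthecon cells and 11.11, 11.85 and 11.70 in BM cells (-5.98 ± 0.47, adjusted p = 1.9e-07, at least 28.5-fold lower). Myd88, the adaptor of most Toll-like receptors, had 8.53, 9.0 and 9.46 in Synthecon cells and 10.67, 11.92 and 11.21 in BM cells (-2.25 ± 0.45, adjusted p = 0.0012, 4.77-fold lower). Of 26 interferon response genes, 8 fell and none rose (median -0.57), although with the slide as a block 3 rose and 11 fell and in slide 2 alone 3 rose and 9 fell, and 13 were read on all Synthecon arrays. Isg20, an exonuclease induced by interferon, had 5.84, 6.16 and 7.07 in Synthecon cells and 10.23, 10.28 and 10.61 in BM cells (-4.10 ± 0.42, adjusted p = 2.9e-06, 17.1-fold lower, read on 1 Synthecon array).

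Genes of pluripotency made up a large share of the opposite end. Of 31 measured regulators, 24 were higher in Synthecon cells and none was called lower, against 17.1% called higher over all genes, and the median difference was 3.32. ESCs hold themselves undifferentiated through a network around Pou5f1 (OCT4), Sox2 and Nanog, which bind DNA together and activate their own genes. The promoter of Nanog is shown because OCT4 and SOX2 are known to bind side by side just before its start. The letters TTTGCAT, which fit the OCT part of that site, are in capitals (RefSeq, GRCm38.p6).
Nanog (chr6:122707239-122707538, plus strand): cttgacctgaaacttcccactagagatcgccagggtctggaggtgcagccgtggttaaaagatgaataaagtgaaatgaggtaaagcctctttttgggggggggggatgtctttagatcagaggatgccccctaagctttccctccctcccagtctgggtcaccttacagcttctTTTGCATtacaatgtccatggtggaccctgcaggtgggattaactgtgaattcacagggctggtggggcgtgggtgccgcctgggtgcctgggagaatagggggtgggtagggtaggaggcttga

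TTTGCAT began 75 bases before the start, stood in 3 of the 14 promoters of the 24 called regulators (Sox2, Nanog and Zfp42) and in 4.59% of all promoters of that length. Nanog had 13.27, 13.35 and 13.92 in Synthecon cells and 6.05, 6.05 and 5.98 in BM cells (7.43 ± 0.90, adjusted p = 1.3e-05, at least 91.3-fold higher). Pou5f1 had 12.45, 12.73 and 13.16 in Synthecon cells and 5.67, 5.81 and 5.60 in BM cells (7.05 ± 0.90, adjusted p = 2.3e-05, at least 55.5-fold higher). Dppa5a, a marker of ESCs and germ cells, had the largest fitted rise, with 14.92, 14.99 and 15.05 in Synthecon cells and 6.17, 6.21 and 6.49 in BM cells (8.70 ± 0.62, adjusted p = 7.1e-08, at least 263-fold higher). Esrrb, an orphan receptor of the network, had 13.61, 13.85 and 14.05 in Synthecon cells and 5.87, 5.59 and 5.79 in BM cells (8.09 ± 0.91, adjusted p = 6.1e-06, at least 119-fold higher). Dppa4 and Fbxo15, both long-used ESC markers, differed by 8.09 ± 0.36, adjusted p = 4.6e-10 and 7.18 ± 0.76, adjusted p = 3.4e-06. Sox2 and Zfp42 differed by 2.88 ± 0.44, adjusted p = 0.00011 and 4.97 ± 0.81, adjusted p = 0.0002. All Synthecon arrays lay above all BM arrays for each of these genes. For those among the 15 largest rises this was a condition of their choice, and 37.2% of all genes had no overlap in either direction. Set against undifferentiated ESCs, 2 of the 31 regulators were called higher and 2 lower in Synthecon cells, near the shares of 7.26% and 4.97% over all genes. Lin28a, chosen after its values were seen, had 6.96, 7.54 and 8.97 in Synthecon cells, against 6.23, 7.79 and 6.95 in BM cells, and was not called (0.68 ± 0.54, adjusted p = 0.4), while Spinner cells averaged 10.35 and undifferentiated ESCs 10.98.

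Germ cell genes were the list in which Synthecon cells differed most often from undifferentiated ESCs: 11 of 17 were higher than in BM cells, and 8 were called higher and none lower than in undifferentiated ESCs, against 7.26% called higher and 4.97% called lower over all genes in that comparison. Rhox5, a homeobox gene of the X chromosome expressed in the germ line and early embryo, had 13.78, 13.99 and 14.27 in Synthecon cells and 5.75, 5.79 and 5.95 in BM cells (8.17 ± 0.32, adjusted p = 1.1e-10, at least 132-fold higher). Dazl, an RNA-binding protein of germ cells, had 10.16, 10.77 and 11.25 in Synthecon cells and 5.77, 5.99 and 5.92 in BM cells (4.82 ± 0.46, adjusted p = 1.2e-06, at least 13.6-fold higher), with means of 8.45 in Spinner cells and 6.65 in undifferentiated ESCs. Rhox9 had 10.08, 11.17 and 12.10 in Synthecon cells and 5.71, 5.46 and 5.66 in BM cells (5.50 ± 0.54, adjusted p = 1.6e-06, at least 17.9-fold higher), and Tex19.1 had 11.54, 11.81 and 12.06 in Synthecon cells and 6.27, 6.46 and 6.50 in BM cells (5.42 ± 0.76, adjusted p = 5.1e-05). Dnmt3l, which helps to methylate DNA in germ cells, was the only one of 15 DNA methylation genes that rose, with 12.80, 13.21 and 13.85 in Synthecon cells and 6.37, 7.09 and 6.93 in BM cells (6.53 ± 0.68, adjusted p = 3e-06, 92.5-fold higher, read on 1 BM array), although with replicates 2, 4, 6 and 8 left out 2 were called higher.

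**Figure D4:**
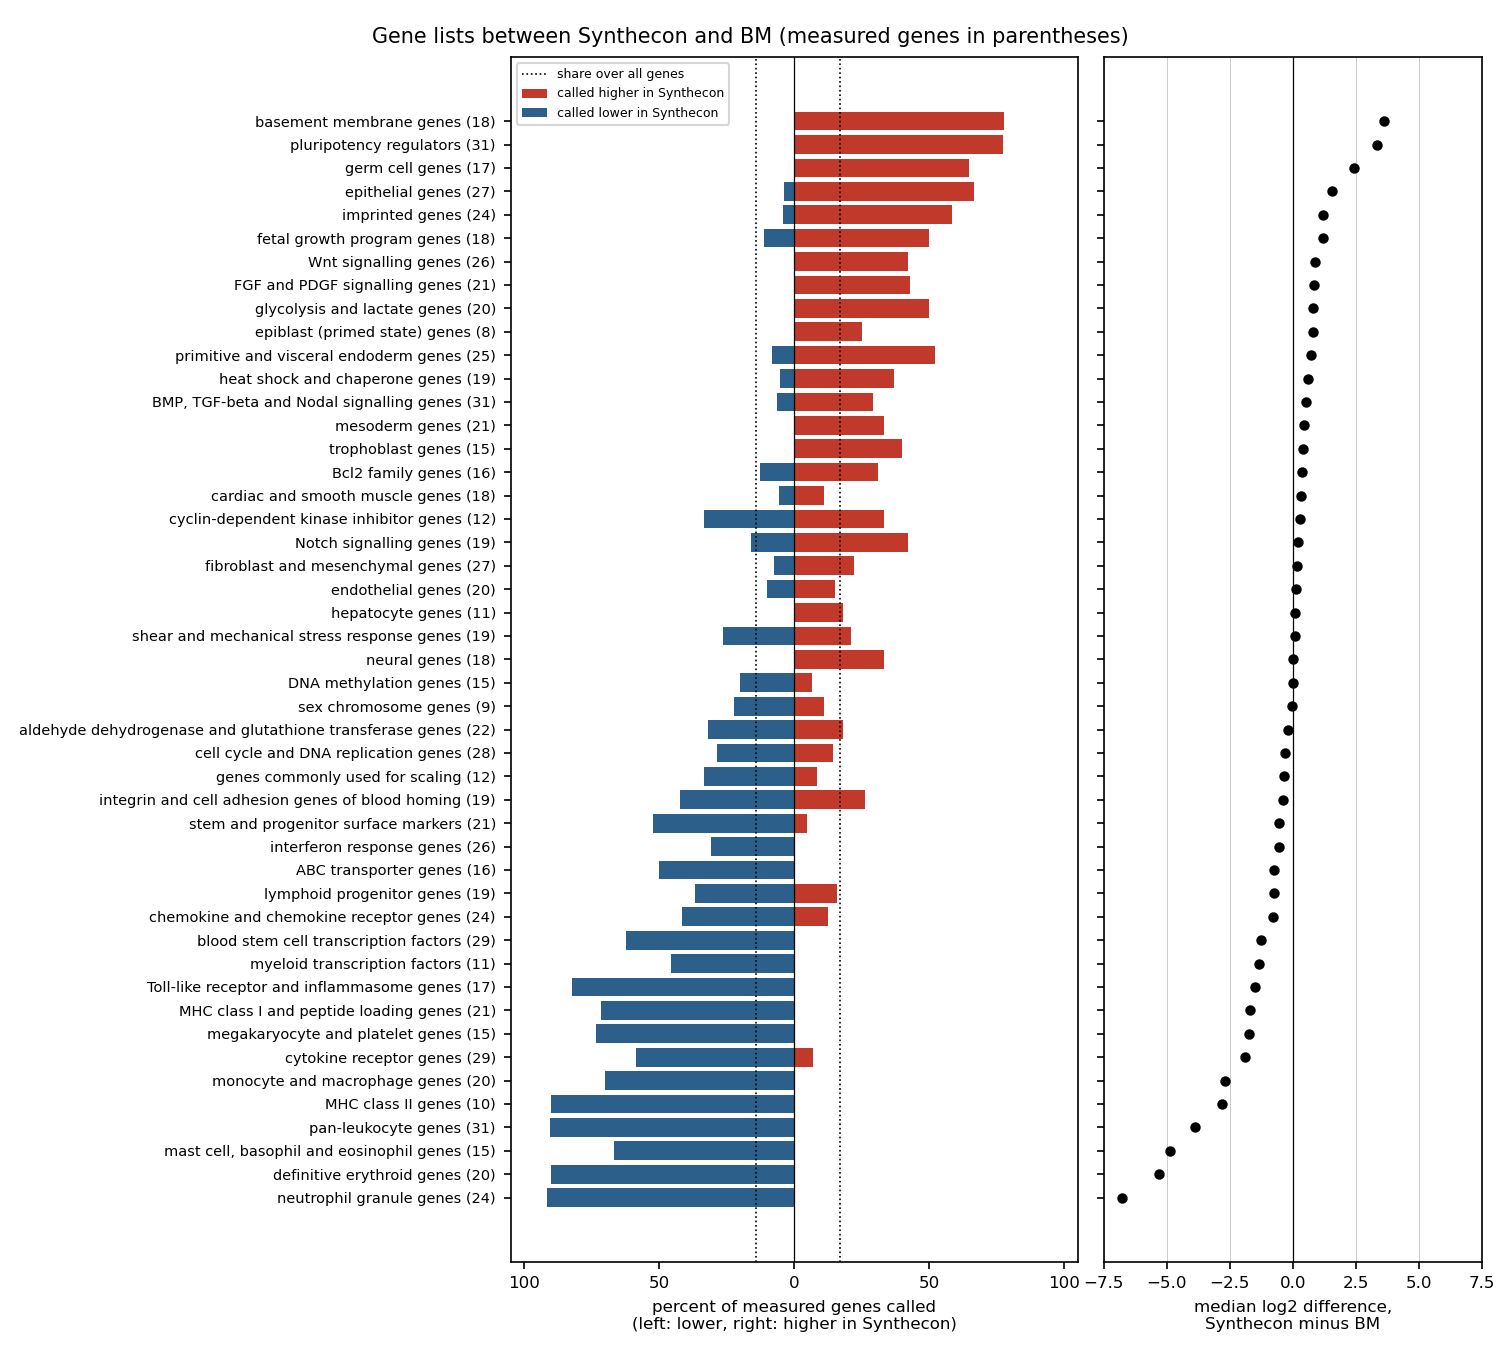
Left: percent of the measured genes of each list called higher (right of 0, red) or lower (left of 0, blue) in Synthecon cells, with dotted lines at the shares over all genes (17.1% and 14.1%). Right: median log2 difference, Synthecon minus BM, of each list; it runs between -6.79 for neutrophil granule genes and 3.63 for basement membrane genes, while the positive medians of the cyclin-dependent kinase inhibitor, Bcl2 family, shear and heat shock lists turn negative on background-subtracted intensities (-0.01, -0.06, -0.44 and -0.02).

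Epithelial genes rose in 18 of 27 cases and fell in 1 (median 1.54). Cldn4 and Cldn6 encode claudins, which seal the space between cells. Cldn4 had 12.02, 12.10 and 12.29 in Synthecon cells and 5.86, 5.89 and 6.15 in BM cells (6.18 ± 0.56, adjusted p = 7.6e-07, at least 36.7-fold higher). Cldn6 had 11.19, 11.37 and 11.65 in Synthecon cells and 6.28, 6.01 and 6.01 in BM cells (5.31 ± 0.70, adjusted p = 2.8e-05, at least 22.1-fold higher). Krt8, a keratin of simple epithelia, had 10.50, 10.88 and 11.22 in Synthecon cells and 6.71, 6.86 and 6.65 in BM cells (4.08 ± 0.30, adjusted p = 1.1e-07, at least 14.6-fold higher). Cdh1, E-cadherin, which ESCs also use and which was chosen after its values were seen, had 10.25, 10.36 and 11.43 in Synthecon cells and 7.87, 7.40 and 7.45 in BM cells (3.02 ± 0.57, adjusted p = 0.00071, 8.09-fold higher). Wfdc2, among the 15 largest rises and a secreted protein of epithelia, had 12.19, 12.64 and 13.28 in Synthecon cells and 6.07, 5.94 and 6.03 in BM cells (6.70 ± 0.65, adjusted p = 1.6e-06, at least 54.5-fold higher). Against Spinner cells 1 of the 27 was lower and none higher, where 1.09% and 2.16% of all genes were called, and against undifferentiated ESCs 3 were lower and none higher, where 4.97% and 7.26% were.

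Basement membrane genes rose in 14 of 18 cases and fell in none (median 3.63). Basement membranes are sheets of laminin and collagen IV that embryoid bodies lay down beneath their outer layer. Col18a1 had 12.47, 12.55 and 12.60 in Synthecon cells and 6.32, 6.44 and 6.55 in BM cells (6.11 ± 0.39, adjusted p = 2.3e-08, at least 48.5-fold higher). Sparc, a matrix protein that binds collagen, had 11.33, 11.92 and 12.34 in Synthecon cells and 6.07, 5.79 and 5.98 in BM cells (5.95 ± 0.60, adjusted p = 2.3e-06, at least 30.9-fold higher). Nid2, a nidogen, which links laminin to collagen IV, had 11.63, 11.70 and 11.89 in Synthecon cells and 6.14, 5.91 and 5.93 in BM cells (5.75 ± 0.41, adjusted p = 7.5e-08, at least 27.7-fold higher). Col4a1, a chain of collagen IV, had 10.66, 11.65 and 12.56 in Synthecon cells and 6.26, 6.66 and 6.50 in BM cells (5.16 ± 0.77, adjusted p = 9e-05, at least 25.7-fold higher). The 2 Synthecon sets lay apart in some of these genes. Col4a1 averaged 10.73 on replicates 1, 3, 5 and 7 and 12.53 on replicates 2, 4, 6 and 8. Lama1, the alpha chain of the embryonic laminin, chosen after its values were seen, averaged 7.94 and 11.15 on the same sets, against 5.99, 5.68 and 5.89 on the BM arrays (3.69 ± 0.78, adjusted p = 0.0018, at least 6.05-fold higher), and without replicates 2, 4, 6 and 8 its call was lost (2.09, adjusted p = 0.07).

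Primitive and visceral endoderm, the outer layer of an embryoid body, gave 13 genes higher and 2 lower of 25 (median 0.70), and 6 higher and none lower when replicates 2, 4, 6 and 8 were left out. Gata6, a regulator of primitive endoderm, had 9.15, 9.75 and 10.26 in Synthecon cells and 6.01, 5.41 and 5.51 in BM cells (4.09 ± 0.57, adjusted p = 5e-05, at least 6.9-fold higher), whereas Gata4 was below background on all 11 arrays. Apoe, apolipoprotein E, had 11.71, 11.99 and 12.12 in Synthecon cells and 6.56, 7.03 and 7.01 in BM cells (5.10 ± 0.74, adjusted p = 7.1e-05, 34.3-fold higher, read on 2 BM arrays). Trf, transferrin, had 7.65, 8.07 and 8.16 in Synthecon cells and 9.36, 10.29 and 10.18 in BM cells (-1.96 ± 0.54, adjusted p = 0.012, 3.9-fold lower), a call lost without either Synthecon set (adjusted p = 0.071 for both). The mesoderm list, the layer from which blood arises, had 7 of 21 genes higher and none lower, although 1 was called lower without BM replicate 1. Bmp4, a signal that turns mesoderm toward blood, had 9.86, 10.41 and 10.98 in Synthecon cells and 5.63, 5.83 and 5.78 in BM cells (4.75 ± 0.53, adjusted p = 5.4e-06, at least 11.7-fold higher). Trophoblast genes rose in 6 of 15 cases. Tfap2c, which trophoblast, germ cells and ESCs share, had 12.28, 12.90 and 13.39 in Synthecon cells and 6.30, 6.32 and 6.02 in BM cells (6.65 ± 0.74, adjusted p = 6.1e-06, at least 60.3-fold higher).

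Fetal growth and imprinted genes rose as groups of unequal members. Of 18 fetal growth genes, 9 rose and 2 fell, and of 24 imprinted genes, 14 rose and 1 fell. Igf2, an imprinted fetal growth factor, had 13.60, 13.90 and 14.33 in Synthecon cells and 6.63, 6.44 and 6.43 in BM cells (7.45 ± 0.61, adjusted p = 2.9e-07, at least 129-fold higher). Igf2bp1, an RNA-binding protein of the fetal program, had 11.04, 11.37 and 12.67 in Synthecon cells and 5.39, 5.44 and 5.62 in BM cells (6.09 ± 0.42, adjusted p = 4.6e-08, at least 24.7-fold higher). Igfbp2 and Mdk, both secreted growth regulators, differed by 6.39 ± 0.31, adjusted p = 8.9e-10 and 6.36 ± 0.38, adjusted p = 1.1e-08. Phlda2 and H19, expressed from the maternal allele, differed by 5.53 ± 0.36, adjusted p = 2.6e-08 and 4.14 ± 0.44, adjusted p = 3.5e-06. The fall was in Igfbp4, with 7.97, 8.58 and 9.21 in Synthecon cells and 11.77, 11.99 and 12.12 in BM cells (-3.34 ± 0.39, adjusted p = 8.7e-06, 10.2-fold lower), in Igf1r (-1.0 ± 0.24, adjusted p = 0.0042) and, among the imprinted genes, in Gnas (-2.03 ± 0.34, adjusted p = 0.00026).

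Signalling genes rose more often than they fell. Of 26 Wnt genes, 11 rose and none fell, and of 21 FGF and PDGF genes, 9 rose and none fell. Pdgfa, a growth factor, had 12.44, 12.62 and 12.71 in Synthecon cells and 6.23, 6.34 and 6.52 in BM cells (6.22 ± 0.42, adjusted p = 3.6e-08, at least 49.7-fold higher). Tcf7l1, a repressor of Wnt targets in ESCs, had 10.19, 10.75 and 11.26 in Synthecon cells and 6.59, 6.42 and 6.32 in BM cells (4.34 ± 0.24, adjusted p = 5.2e-09, at least 14.3-fold higher). In the BMP, TGF-beta and Nodal list 9 of 31 rose and 2 fell. Tgfb1, a factor that holds stem cells quiet in marrow, had 6.05, 6.57 and 6.71 in Synthecon cells and 9.72, 9.67 and 9.59 in BM cells (-3.19 ± 0.36, adjusted p = 7.3e-06, 9.12-fold lower, read on 1 Synthecon array), and the other fall was its receptor Tgfbr2 (-2.54 ± 0.77, adjusted p = 0.02), whose call was lost without either Synthecon set (adjusted p of 0.13 and 0.079). Acvr2b, a receptor for activin and Nodal, had 12.20, 12.42 and 12.55 in Synthecon cells and 8.61, 8.51 and 8.72 in BM cells (3.80 ± 0.24, adjusted p = 1.9e-08, 13.9-fold higher). Of the Notch genes, 8 of 19 rose and 3 fell: the receptor Notch1 was lower (-1.29 ± 0.27, adjusted p = 0.0019) while Notch3 and Notch4 were higher (2.49 ± 0.20, adjusted p = 2.1e-07, and 2.43 ± 0.28, adjusted p = 9.3e-06). With either Synthecon set left out, 5 Notch genes were called higher in place of 8, and 1 gene of the BMP list lower in place of 2.

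Cell cycle genes gave 4 of 28 higher and 8 lower (median -0.30), against 17.1% and 14.1% over all genes. Without Synthecon replicates 2, 4, 6 and 8, 2 were higher. Aurka, a kinase of mitosis, had 11.55, 11.97 and 12.35 in Synthecon cells and 10.56, 10.57 and 10.60 in BM cells (1.43 ± 0.23, adjusted p = 0.00021, 2.69-fold higher), whereas Cdk6, the kinase of early G1 in blood progenitors, had 5.64, 6.02 and 6.30 in Synthecon cells and 7.29, 7.46 and 7.43 in BM cells (-1.36 ± 0.12, adjusted p = 5.4e-07, at least 1.6-fold lower). The inhibitors were split. Cdkn1c (p57) had 10.86, 11.31 and 11.45 in Synthecon cells and 6.46, 6.77 and 6.81 in BM cells (4.55 ± 0.57, adjusted p = 1.7e-05, at least 19.5-fold higher), whereas Cdkn2c (p18) had 7.07, 7.25 and 7.61 in Synthecon cells and 9.62, 10.12 and 10.11 in BM cells (-2.62 ± 0.31, adjusted p = 1e-05, 6.16-fold lower). In the Bcl2 family, Bcl2, which protects blood cells, had 5.77, 6.19 and 6.44 in Synthecon cells and 9.25, 8.99 and 9.03 in BM cells (-2.92 ± 0.29, adjusted p = 1.9e-06, at least 5.17-fold lower). Bik, which promotes cell death, had 9.49, 9.80 and 10.15 in Synthecon cells and 6.46, 6.0 and 6.44 in BM cells (3.51 ± 0.32, adjusted p = 7.8e-07, at least 7.27-fold higher).

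Metabolic and stress genes followed. Of 20 glycolysis and lactate genes, 10 rose and none fell (median 0.81). Slc2a1, the glucose transporter GLUT1, had 12.38, 12.57 and 12.83 in Synthecon cells and 8.58, 10 and 9.37 in BM cells (3.24 ± 0.59, adjusted p = 0.00056, 9.46-fold higher). Slc2a3 (GLUT3) had 13.91, 14.01 and 14.14 in Synthecon cells and 9.86, 12.39 and 10.95 in BM cells (2.95 ± 0.51, adjusted p = 0.00034, 7.71-fold higher). Aldh1a1, the retinal dehydrogenase on which the activity stain for stem cells is partly based, had 5.30, 5.53 and 5.80 in Synthecon cells and 10.12, 9.43 and 9.62 in BM cells (-4.19 ± 0.18, adjusted p = 3.9e-10, at least 8.03-fold lower), and FL cells averaged 5.85. Of the 22 genes of its list, 4 rose and 7 fell. The list also held glutathione transferases that rose, and Gstp2 had 13.18, 13.30 and 13.47 in Synthecon cells and 6.71, 6.51 and 6.15 in BM cells (6.86 ± 0.86, adjusted p = 1.7e-05, at least 82.7-fold higher). Of 19 heat shock and chaperone genes, 7 rose, 1 fell and 11 were not called. Their median of 0.584 turned to -0.02 on background-subtracted intensities. Hspb1, a small heat shock protein with the largest rise of that list, had 12.10, 12.29 and 13.43 in Synthecon cells and 6.53, 7.61 and 6.95 in BM cells (5.51 ± 0.55, adjusted p = 2.1e-06, 45.7-fold higher, read on 1 BM array). The transporter Abcb4 had 5.68, 5.97 and 6.17 in Synthecon cells and 11.89, 10.78 and 11.14 in BM cells (-5.30 ± 0.42, adjusted p = 2.2e-07, at least 23.5-fold lower), and 8 of 16 ABC transporter genes fell with none higher.

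Genes known to respond to shear and handling gave 4 higher and 5 lower of 19, against 17.1% called higher and 14.1% called lower over all genes. Fosb, Fos and Egr1, immediate early genes that rise within minutes when cells are stressed or dissociated, were among those that fell. Fosb had 7.25, 7.61 and 8.22 in Synthecon cells and 11.38, 12.91 and 12.71 in BM cells (-4.68 ± 0.53, adjusted p = 6.6e-06, 25.6-fold lower). Fos had 10.28, 10.81 and 11.20 in Synthecon cells and 13.47, 14.57 and 14.59 in BM cells (-3.44 ± 0.43, adjusted p = 1.9e-05, 10.9-fold lower), and Egr1 had 10.11, 10.37 and 10.53 in Synthecon cells and 12.21, 14.35 and 13.82 in BM cells (-3.13 ± 0.51, adjusted p = 0.00021, 8.76-fold lower). BM replicate 1 was the lowest BM array for these 3 genes. Ccn2, a matrix protein induced by YAP and by stretch, had 11.39, 11.78 and 12.31 in Synthecon cells and 6.04, 6.04 and 6.04 in BM cells (5.81 ± 0.60, adjusted p = 3e-06, at least 29.9-fold higher), and Spinner, Static and undifferentiated cells had means of 12.39, 11.92 and 12.38.

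Detection was then counted alone. A total of 1301 probes were above background on all 8 Synthecon arrays and on no BM array, and 552 on all 3 BM arrays and no Synthecon array. By brightest probe these were 1031 and 402 genes, of which 949 (read in Synthecon cells) and 394 (read in BM cells) were called, against 31.2% of all genes. Both classes were set by detection on these same arrays, so a high share of calls is largely built into them. The median bound on the fold was 2.153 for the 1031 genes and 3.937 for the 402 genes. Of the 1031 genes read in Synthecon cells only, 64.6% were read on all arrays of undifferentiated ESCs, 78.1% on all Spinner arrays, 49% on all Static arrays and 3.78% on all FL arrays. Of the 402 genes read in BM cells only, 74.1% were read on all FL arrays, 91.5% on no Spinner array and 79.9% on no array of undifferentiated ESCs. For scale, single arrays of undifferentiated ESCs read 40.1% to 41.8% of all probes and Spinner arrays 40.8% to 42.9%. Static arrays read 40.4% to 43.2% and FL arrays 38.1% to 40.4%. The shares of all genes read on every array of a group were not counted.

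The remaining groups place the difference. Against Spinner cells, 387 genes (2.16%) were called higher and 196 (1.09%) lower in Synthecon cells, against undifferentiated ESCs 1300 (7.26%) and 890 (4.97%), against Static cells 1323 (7.39%) and 954 (5.33%), and against FL cells 2750 (15.4%) and 2248 (12.6%). FL against BM cells gave 79 genes (0.441%) higher and 180 (1.0%) lower. These comparisons share the Synthecon or the BM arrays, so their values stand side by side only. Of the 20 erythroid genes, 18 were lower in Synthecon than in FL cells and none was called against Spinner cells. Of the 31 pan-leukocyte genes, 28 were lower in Synthecon than in FL cells, 8 were lower than in Static cells and none was called against Spinner cells or undifferentiated ESCs. Of the 31 pluripotency regulators, 26 were higher in Synthecon than in FL cells and 15 were higher than in Static cells. The Static arrays were unlike each other: the mean level of the pluripotency regulators was 10.43, 8.19 and 7.59 on Static replicates 1, 2 and 3 and 10.26 to 10.81 on the Synthecon arrays, and that of the pan-leukocyte genes was 6.62, 8.73 and 8.65 on the Static arrays and 6.46 to 6.62 on the Synthecon arrays.

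**Figure D5:**
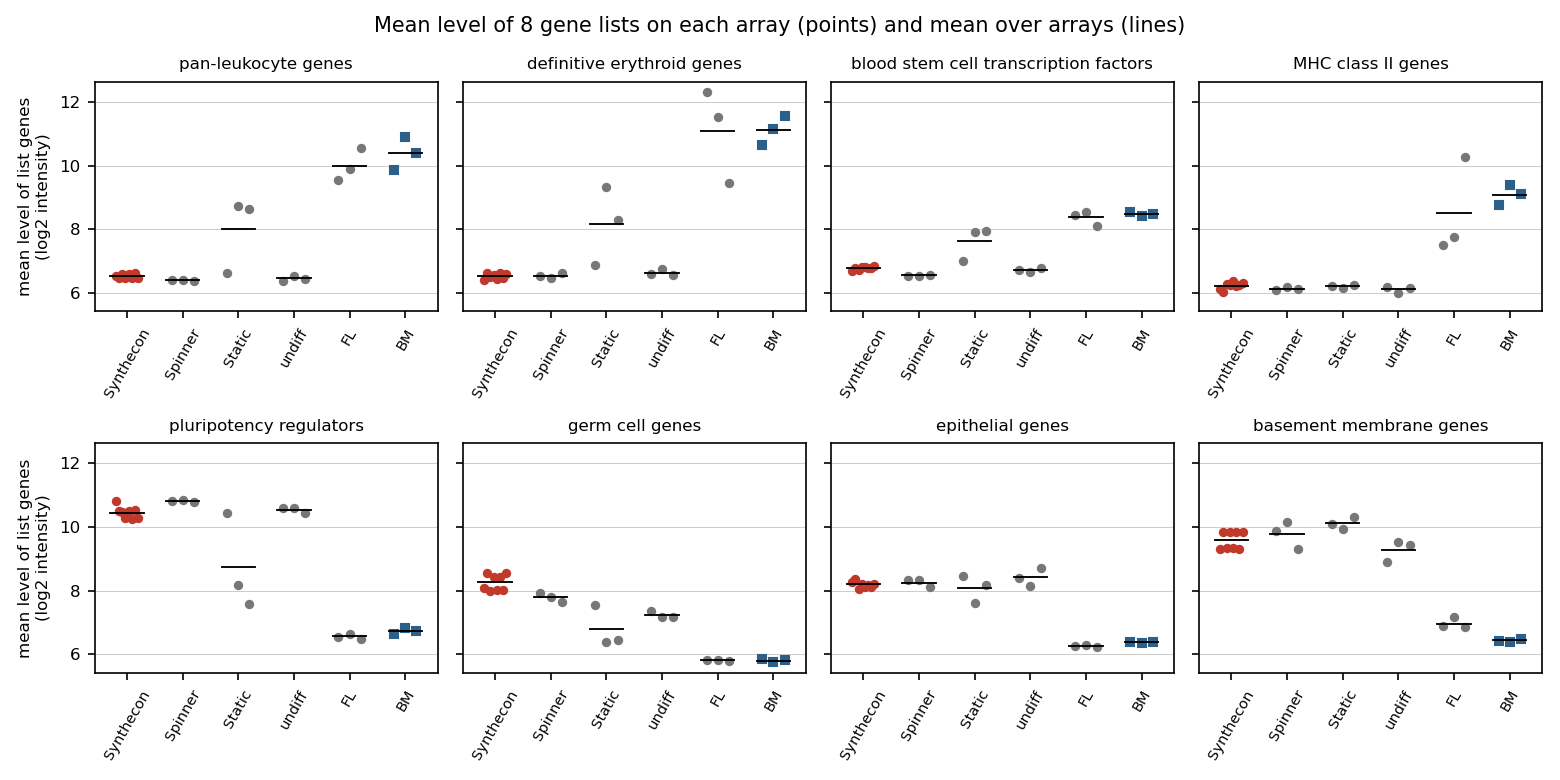
Mean log2 intensity (vertical axis) over the genes of 8 lists on each array, for Synthecon, Spinner, Static, undifferentiated (undiff), FL and BM; points are arrays and lines are means over arrays. Synthecon arrays lie apart from BM arrays in all 8 lists, and near Spinner and undifferentiated arrays in all but the germ cell list. There every Synthecon array (7.98 to 8.56) lies above the Spinner (7.66 to 7.93) and undifferentiated arrays (7.16 to 7.37).

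Genes of the sex chromosomes differed among the BM arrays. Xist, which silences an X chromosome in female cells, had 5.88, 6.31 and 6.48 in Synthecon cells and 9.50, 8.90 and 8.69 in BM cells (-2.79 ± 0.27, adjusted p = 1.6e-06, at least 4.96-fold lower). The Y-linked Eif2s3y had 10.58, 10.83 and 11.72 in Synthecon cells and 10.07, 5.61 and 10.13 in BM cells and was not called (2.40 ± 0.88, adjusted p = 0.052), with BM replicate 2 at background. Kdm5d had 5.50, 5.63 and 5.90 in Synthecon cells and 7.57, 5.72 and 7.36 in BM cells (-1.23 ± 0.38, adjusted p = 0.022), and Ddx3y had 12.03, 12.15 and 13.13 in Synthecon cells and 10.96, 9.78 and 10.52 in BM cells (1.92 ± 0.34, adjusted p = 0.00038, 3.8-fold higher). Eif2s3y was called higher when any 1 BM array was left out (0.90 without replicate 2, 3.13 and 3.16 without replicates 1 and 3), and Kdm5d lost its call without BM replicate 1 or 3 or either Synthecon set (adjusted p of 0.091 to 0.11). Uty, Eif2s3x, Kdm6a, Kdm5c and Ddx3x were not called (adjusted p between 0.13 and 0.92). Xist was read on all 3 BM arrays and on no Synthecon array. Ddx3y and Uty were read on all 11 arrays, Eif2s3y on all but BM replicate 2, and Kdm5d on BM replicates 1 and 3 alone. The counts of this list moved whenever 1 BM array was left out: without replicate 1, 2 or 3, 2 genes were called higher in place of 1, and without replicate 1 or 3, 1 was called lower in place of 2.

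Markers of other cells that a culture or a sort could hold were read beside these results. Fibroblast and mesenchymal genes, which feeder cells would carry, gave 6 higher, 2 lower and 19 not called of 27, with a median difference of 0.149. The summed linear signal of the list was 11614 to 13789 on the Synthecon arrays and 6002 to 6897 on the BM arrays. Such a sum weighs the brightest genes most, and so does not speak for the list as a whole. Col1a1, the main collagen of fibroblasts, had 5.68, 6.48 and 7.16 in Synthecon cells and 6.20, 6.01 and 6.29 in BM cells and was not called (0.27 ± 0.64, adjusted p = 0.81). Pdpn, which epithelia also make, had the largest rise of the list, with 12.15, 12.55 and 12.93 in Synthecon cells and 6.05, 6.62 and 6.30 in BM cells (6.23 ± 0.34, adjusted p = 4e-09, at least 48.7-fold higher). Endothelial genes gave 3 higher and 2 lower of 20, near the 17.1% and 14.1% over all genes, with sums of 6242 to 8389 on the Synthecon arrays and 5919 to 6854 on the BM arrays, and Cdh5, VE-cadherin, was below background on all 11 arrays. Hepatocyte genes gave 2 higher and none lower of 11, against the same 17.1% and 14.1%. Their sums were 667 to 750 on the Synthecon arrays and 575 to 642 on the BM arrays, and Alb was below background on all 11 arrays. Neutrophil granule genes summed to 1633 to 1770 on the Synthecon arrays and 124445 to 390332 on the BM arrays, and definitive erythroid genes to 2776 to 3312 on the Synthecon arrays and 83430 to 147662 on the BM arrays. Without the odd-numbered Synthecon replicates, 3 fibroblast genes were called higher and 1 lower, and without either Synthecon set 1 endothelial gene was called each way. With the slide as a block 2 endothelial genes were higher and 7 lower, and in slide 2 alone 3 were higher and 5 lower. With the slide as a block 1 hepatocyte gene was called lower. The fibroblast genes called lower were 1 without BM replicate 3 and 0 without the even-numbered Synthecon replicates. The part of mature cells left in the depleted marrow in these falls was not tested. Pluripotency regulators summed to 122750 to 148203 on the Synthecon arrays and 8623 to 19250 on the BM arrays, and the part of undifferentiated cells within the sorted Synthecon cells was not tested.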

How the data were processed

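RNA of sorted LKS cells and of ESCs was amplified once, labelled with biotin and hybridised to Illumina mouse bead arrays, and per the methods BeadStudio summarised the beads of each probe. The authors deposited log2 values that they had background-subtracted and quantile-normalized, which are the values used here. They also deposited background-subtracted and non-normalized intensities on a linear scale. The detection p-value of each probe on each array, as deposited, compares it with negative controls, and under 0.01 was taken as above background. Depth has no meaning for these arrays, and the number of samples limits the precision. The authors' own group means, log ratios, p-values and gene lists were not used.

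Probes were matched to RefSeq by accession (24198 of 25697, 94.2%) or by symbol or synonym (834), and 665 kept the symbol of the file. The brightest probe stood for a gene. Probes of 30 genes were called in both directions. Synthecon replicates 1, 3, 5 and 7, and 2, 4, 6 and 8, were averaged as 2 samples. limma 3.58.1 (R 4.3.3; lmFit, then eBayes with a trend) was fitted to 17 samples of 6 groups, with Synthecon minus BM as the contrast and Benjamini-Hochberg adjustment over all probes. Every adjusted p in the text is from such a fit. Tested on simulated data for this contrast (25697 probes), it recovered 98 of 100 probes set to differ 5-fold and, of another 100 set to differ 2-fold, 60, and made 11 false calls. Only these probes differed there, and the noise was independent and normal, without a background floor or slide effect. In the data 29.4% of probes were called, so these rates need not hold for them. Members and gene lists were chosen with earlier results of these data known. The genes named were the 15 largest rises and falls among called genes without overlap, up to 4 called members in each direction of each list described, fixed sort, lineage, globin, receptor and sex chromosome genes, and a few uncalled members; the others are said to be chosen after their values were seen. Some genes that this rule takes are not reported here. Alternatives changed the samples, slide or replicate block, trend, filter, background correction, t-test and detection limit, and left out each BM array and each Synthecon set.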

Additional observations from a re-analysis of the deposited data

Results flagged for a closer look

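Among the 155 genes named, the 8 Synthecon arrays held 2 values far from the rest by Dixon's ratio. Itgam stood at 6.12 on Synthecon replicate 7, against 5.80 on the next array (ratio 0.66). Mcpt8 stood at 5.95 on replicate 8, against 5.73 on the next (ratio 0.54). Both values are below the dimmest detected probes. For independent values, chance alone puts about 1 in 20 groups past this limit. The 8 arrays formed 2 sets of near repeats, so that rate need not hold here.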

How the results depend on the processing

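The 7558 called probes numbered 4784 and 5028 with 1 Synthecon set left out and 6349 to 6990 with 1 BM array left out (4784 to 6990 in all). By the methods' t-test with equal variances on 2 against 3 samples there were 4624, and with unequal variances 1388, of which 461 differed 5-fold. On background-subtracted intensities, 2239 probes differed 5-fold in place of 1240, with 3269 of all calls higher and 5165 lower. Of the probes read on all 3 BM arrays and no Synthecon array, 1034 were counted in slide 2 alone in place of 552, where fewer arrays must meet the condition. The other counts over all probes stayed within 1.5 times. Of 100 gene list counts (50 lists, higher and lower), 25 moved by more with only the 8 Synthecon and 3 BM arrays in the fit, 22 and 20 without a Synthecon set, 17 with each Synthecon array as a sample and 0 to 12 in the other settings. In that fit of the 11 arrays, calls numbered 10 in place of 3 for cardiac and smooth muscle genes, 13 in place of 5 for endothelial, 20 in place of 11 for BMP and 14 in place of 8 for fibroblast genes. Replicate numbers are shared only as names across groups, and a replicate block over replicates 1 to 3 gave 8243 called probes, against 8059 without the block on the same arrays. Of the 155 named genes, none turned direction past the threshold in any alternative. Many of them were named for large differences in these same data, so this says little of the other called genes. With the slide as a block, 2 lost their call and 4 gained one. Slide 2 alone moved 5 and 4. The unequal-variance t-test on 2 against 3 samples lost 85. In the simulated data, with 2 and 3 samples in these groups, differences of 2-fold were often missed. Treating the Synthecon set as a random block (9320 called probes), averaging Spinner replicates 1 and 2 (7211) and the fit of replicates 1 to 3 without the block were chosen after seeing the data.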
